A study of Mus musculus with 8 samples.

Results

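Followed in whole aortas were 8 genes that are used to mark resident macrophages in mouse tissues: F13a1, Folr2, Cbr2, Mrc1, Cd163, Cd209f, Cd209g and Vsig4. They were taken by name from a table of 48607 assembled loci, and where a name stood on several loci the one with the most reads was used, so that 8 loci stood for the 8 genes. Whole aortas from mice fed a Western diet for 12 weeks had been sequenced as poly(A) RNA. By title, 5 libraries came from ApoE-/- mice and 3 from NPRC-/-ApoE-/- mice, so every mouse lacked apolipoprotein E, which makes the mouse prone to atherosclerosis. NPRC, the clearance receptor for natriuretic peptides, had been disrupted by a CRISPR/Cas9 frameshift in exon 1 on the C57BL/6 background in all cells of the body, so that no cell type of the aorta was targeted on its own, and littermates were compared. The age of these 8 mice is not stated in the labels.

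The title and the genotype field agree for 4 libraries, ApoE-/- 1, 2 and 3 and NPRC-/-ApoE-/- 3. For the other 4 they conflict, as ApoE-/- 4 and 5 are entered as double knockouts and NPRC-/-ApoE-/- 1 and 2 as ApoE-/-. Libraries are therefore called by their titles, and differences between the groups, of members and of gene lists, are given by title and again by genotype field. Npr3, which encodes NPRC, was at 0.62 to 1.69 FPKM (a level per transcript length, scaled for depth) in libraries titled ApoE-/- and at 1.13 to 1.39 FPKM in those titled NPRC-/-ApoE-/-. These ranges overlap, and since a frameshift can leave the transcript in place, the Npr3 level does not tell which label applies. The libraries held 62969165 to 86693276 counts. Acta2, the smooth muscle actin, was at 849 to 1982 FPKM, and Ucp1, the brown fat uncoupling protein, was at 71.8 to 343 FPKM.

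Macrophages that settle in the outer layer of arteries, the adventitia, are long-lived cells that take up debris, complexes and glycoproteins, and they differ from the lipid-laden foamy macrophages that form in the plaque from recruited monocytes. Their usual markers are endocytic receptors, C-type lectins, a complement receptor and a few enzymes. In whole tissue, fewer cells of a type and less RNA per cell cannot be told apart. Neither the position of a cell, in the wall or in fat, nor the cell type that a read came from is recorded.

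By title, the log2 differences of the 8 genes (NPRC-/-ApoE-/- minus ApoE-/- throughout) ran from -1.06 to 0.17. Mrc1, Folr2 and Cd209f had lower levels in NPRC-/-ApoE-/- aortas, whereas F13a1, Cbr2 and Cd163 showed log2 differences between 0.0005 and 0.17. Mrc1 had the smallest standard error of the 8 and no overlap between the titled groups, and Cd209f was the single member with a fold below 0.5 and an unadjusted p under 0.05, the criterion for a changed gene that the study used. A level of at least 1 FPKM in at least 3 libraries was required for the test, and 6 of the 8 members reached it. Cd209f reached it through the ApoE-/- libraries alone, so counts over the tested members are descriptions. Of the 6, 0 had an adjusted p under 0.05 in edgeR's quasi-likelihood test (Benjamini-Hochberg), as did 0.0% of the 20506 loci tested. The criterion with a lower level was met by 1 of 6 members against 2.39% of all loci, an unadjusted p under 0.05 with a lower level by 3 of 6 against 7.13%, and groups without overlap, lower in NPRC-/-ApoE-/-, by 2 of 6 against 3.69%. In the fit without a filter, which held all 8, an unadjusted p under 0.05 with a lower level was found for 4, as Cd209g joined the other 3. The share of all loci was not computed for that fit, and 7.13% belongs to the filtered one, so the 4 have no base to be read against. By genotype field the 4 counts over the 6 members were 0, against 0.0%, 0.263%, 0.697% and 0.566% of all loci in the same order.

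Among the endocytic receptors, Mrc1 (ENSMUSG00000026712, GRCm38 chr2:14229392-14332057, plus strand), the mannose receptor CD206, stood in the libraries titled ApoE-/- 1 to 5 at 11.98, 11.69, 10.10, 9.37 and 10.49 FPKM. In NPRC-/-ApoE-/- 1 to 3 it was at 7.48, 7.29 and 5.71 FPKM. The lowest ApoE-/- library thus lay above the highest NPRC-/-ApoE-/- library, with means of 10.7 ± 1.09 (SD, n = 5) and 6.83 ± 0.972 FPKM (SD, n = 3). The log2 difference was -0.63 (SE 0.12, unadjusted p = 0.000605), and the adjusted p of edgeR's quasi-likelihood test (Benjamini-Hochberg over all loci) was 0.203. The two-sided exact permutation p was 0.0357, the smallest that 5 libraries against 3 allow. Leaving out any single library left the difference between -0.68 and -0.54. The adjusted p depended on the tool, with 0.000217 in DESeq2, 0.0374 in limma with array quality weights, and a range of 0.000217 to 0.735 over 19 fits. By genotype field the log2 difference was -0.17 (SE 0.24, adjusted p = 1.0 in edgeR's quasi-likelihood test), since 2 of the 3 libraries then called double knockouts were ApoE-/- 4 and 5 with 9.37 and 10.49 FPKM. In the 4 libraries with agreeing labels, NPRC-/-ApoE-/- 3 lay 0.889 below the ApoE-/- mean on the log2 scale. The locus also contains Mir511, a microRNA gene that overlaps Mrc1 on the same strand, whose reads cannot be separated from it here.

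The start region of Mrc1, the member whose titled groups were furthest apart relative to their spread, is printed to show the sequence from which its transcript is read, 250 bases before to 50 after the start in RefSeq on GRCm38.p6, chr2:14229164-14229463, plus strand. Capitals mark GAGGAA on either strand (read as TTCCTC on the other), letters bound by the myeloid factor PU.1, which Spi1 encodes, of which 3 copies without overlap were found.
Mrc1: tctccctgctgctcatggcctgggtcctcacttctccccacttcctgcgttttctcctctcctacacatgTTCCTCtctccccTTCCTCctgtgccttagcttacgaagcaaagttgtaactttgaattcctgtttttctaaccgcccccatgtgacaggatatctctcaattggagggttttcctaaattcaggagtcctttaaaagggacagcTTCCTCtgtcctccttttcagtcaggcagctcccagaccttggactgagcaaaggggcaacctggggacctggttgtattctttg
The same letters were found in 4 of the 8 members' windows (Mrc1, Cbr2, F13a1 and Vsig4) and in 28.28% of 32851 such windows of all genes. A match describes the letters and is not a measured binding site, and both sets of members, those lower by title and those near 0, included windows with and without it.

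Folr2 (ENSMUSG00000032725, chr7:101839988-101857194, minus strand), the folate receptor beta of macrophages, was at 5.38, 9.04, 6.45, 9.28 and 4.20 FPKM in ApoE-/- 1 to 5. The NPRC-/-ApoE-/- libraries 1 to 3 held 3.68, 4.53 and 2.91 FPKM. These were low, but ApoE-/- 5 lay below NPRC-/-ApoE-/- 2, so the groups overlapped. The log2 difference was -0.88 (SE 0.31, unadjusted p = 0.0183, adjusted p = 0.309 in edgeR's quasi-likelihood test), and the exact permutation p was 0.0714. The unadjusted p of edgeR was no longer under 0.05 without NPRC-/-ApoE-/- 1 (log2 difference -0.86) and without NPRC-/-ApoE-/- 3 (-0.75). By genotype field the difference was -0.05 (SE 0.42), as ApoE-/- 4, at 9.28 FPKM the highest library, was entered as a double knockout. Gm10602 and Gm45319 overlap Folr2 on the opposite strand, and whether strand was used in counting is not given in the sources used here.

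Cd163 (ENSMUSG00000008845, chr6:124304656-124330527, plus strand), the scavenger receptor for haptoglobin-bound haemoglobin, was at 2.45, 2.15, 1.59, 1.54 and 2.07 FPKM in ApoE-/- 1 to 5, and at 1.77, 2.54 and 2.15 FPKM in NPRC-/-ApoE-/- 1 to 3. The highest value belonged to NPRC-/-ApoE-/- 2 and the lowest to ApoE-/- 4, with the groups overlapping along most of their range. The log2 difference was 0.17 (SE 0.17, adjusted p = 0.68 in edgeR's quasi-likelihood test), with an interval of 2 SE from -0.172 to 0.506. By genotype field it was -0.09 (SE 0.18).

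Of the C-type lectins related to DC-SIGN, Cd209f (ENSMUSG00000051906, chr8:4102787-4105835, minus strand) was at 1.48, 2.98, 1.08, 1.07 and 1.64 FPKM in ApoE-/- 1 to 5 and at 0.91, 0.60 and 0.78 FPKM in NPRC-/-ApoE-/- 1 to 3. Its groups did not overlap, although ApoE-/- 3 and 4 were closer to NPRC-/-ApoE-/- 1 than to ApoE-/- 2. The log2 difference was -1.06 (SE 0.35, a fold of 0.480, unadjusted p = 0.0139, adjusted p = 0.29 in edgeR's quasi-likelihood test), and the exact permutation p was 0.0357. Without ApoE-/- 2 the difference was -0.75 and the criterion was no longer met, and without NPRC-/-ApoE-/- 2 it was -0.89 and the unadjusted p of edgeR was above 0.05. By genotype field it was -0.25 (SE 0.48). Cd209f rested on 94 to 479 counts per library.

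Cd209g (ENSMUSG00000079168, chr8:4134098-4137707, plus strand), its neighbour, was at 0.32, 0.63, 0.44, 0.33 and 0.43 FPKM in ApoE-/- 1 to 5 and at 0.27, 0.32 and 0.19 FPKM in NPRC-/-ApoE-/- 1 to 3. Only NPRC-/-ApoE-/- 2 reached the lowest ApoE-/- value, and no library reached 1 FPKM. In the fit without a filter the log2 difference was -0.71 (SE 0.31, unadjusted p = 0.0454, adjusted p = 0.469 in edgeR's quasi-likelihood test). The exact permutation p was 0.0714, and 0.143 after adjustment over the 8 members. By genotype field the log2 difference was -0.31 (SE 0.37). ApoE-/- 2 was the highest library for both lectins, and in it the summed level of 6 B cell genes was 21.2 FPKM, compared with 0.64 to 3.44 FPKM in the other 7 libraries. The erythroid, white adipocyte, T cell, platelet and endothelial sums were also highest there, at 1802, 397, 7.92, 7.42 and 96.4 FPKM. In the same order, the next highest library held 875, 281, 7.24, 6.67 and 95.8 FPKM. The part of these cells in the lectin values was not tested.

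Both lectins were uncertain as separate measurements. Their GENCODE M21 transcripts were 91.72% identical over 1159 aligned bases, with 416 bases in a row without a difference, longer than the sequenced reads, so fragments from this stretch could have been counted for either gene. Identity with the other 5 Cd209 genes compared was at most 66.12%. Their start regions are printed because the likeness also covers the region around the RefSeq start. Capitals mark the run of 180 bases that the 2 windows share (positions 97 to 276 in Cd209f and 83 to 262 in Cd209g, counted from 1 at the 5′ end), and identity was 94.9% over 255 aligned bases. The windows are RefSeq on GRCm38.p6, chr8:4105715-4106014 on the minus strand for Cd209f and chr8:4134486-4134785 on the plus strand for Cd209g, both written 5′ to 3′.
Cd209f: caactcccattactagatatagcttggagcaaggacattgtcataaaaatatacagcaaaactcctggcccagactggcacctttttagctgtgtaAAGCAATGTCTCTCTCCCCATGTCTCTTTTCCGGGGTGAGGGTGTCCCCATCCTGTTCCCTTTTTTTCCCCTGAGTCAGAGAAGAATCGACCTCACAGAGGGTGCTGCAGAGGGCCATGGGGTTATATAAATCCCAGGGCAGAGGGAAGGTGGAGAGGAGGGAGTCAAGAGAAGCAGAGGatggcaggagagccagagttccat
Cd209g: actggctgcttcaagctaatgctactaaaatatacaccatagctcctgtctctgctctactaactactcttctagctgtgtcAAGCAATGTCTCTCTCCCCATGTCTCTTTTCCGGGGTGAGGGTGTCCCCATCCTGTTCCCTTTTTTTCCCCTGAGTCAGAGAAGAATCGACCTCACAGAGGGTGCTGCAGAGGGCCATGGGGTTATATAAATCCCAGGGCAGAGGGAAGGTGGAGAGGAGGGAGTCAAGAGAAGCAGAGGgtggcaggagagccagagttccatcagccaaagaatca

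Vsig4 (ENSMUSG00000044206, chrX:96247203-96293438, minus strand), a macrophage receptor that binds complement fragment C3b, was at 0.78, 1.01, 0.55, 0.58 and 0.89 FPKM in ApoE-/- 1 to 5. In NPRC-/-ApoE-/- 1 to 3 it was at 0.46, 1.09 and 0.57 FPKM. The highest and the lowest library both carried the title NPRC-/-ApoE-/-. Without a filter the log2 difference was -0.07 (SE 0.34), and an interval of 2 SE from -0.744 to 0.613 left room for sizeable differences in either direction. By genotype field it was -0.17 (SE 0.35).

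Of the enzymes, F13a1 (ENSMUSG00000039109, chr13:36867178-37050244, minus strand), the catalytic chain of factor XIII that cross-links fibrin, was at 10.88, 13.40, 8.43, 8.01 and 12.42 FPKM in ApoE-/- 1 to 5 and at 9.09, 13.09 and 9.05 FPKM in NPRC-/-ApoE-/- 1 to 3. The titled groups covered nearly the same range, and the log2 difference was 0.0005 (SE 0.19, interval of 2 SE -0.37 to 0.371). By genotype field it was -0.14 (SE 0.19). A further 2 loci on the plus strand carried the name F13a1, at 0.69 to 1.34 and 0.35 to 0.84 FPKM, and Gm49144 and Gm30489 are annotated across from it on that strand. Cbr2 (ENSMUSG00000025150, chr11:120729489-120732114, minus strand), a carbonyl reductase, was at 28.16, 35.20, 25.62, 32.85 and 31.78 FPKM in ApoE-/- 1 to 5 and at 27.47, 32.78 and 35.89 FPKM in NPRC-/-ApoE-/- 1 to 3. It was the member with the highest level in each of the 8 libraries and had the narrowest spread relative to its level, and NPRC-/-ApoE-/- 3 was its highest library, which was the lowest for Mrc1, Folr2 and Cd209g. The log2 difference was 0.09 (SE 0.15, interval of 2 SE -0.209 to 0.388), and by genotype field 0.21 (SE 0.14).

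**Figure D1:**
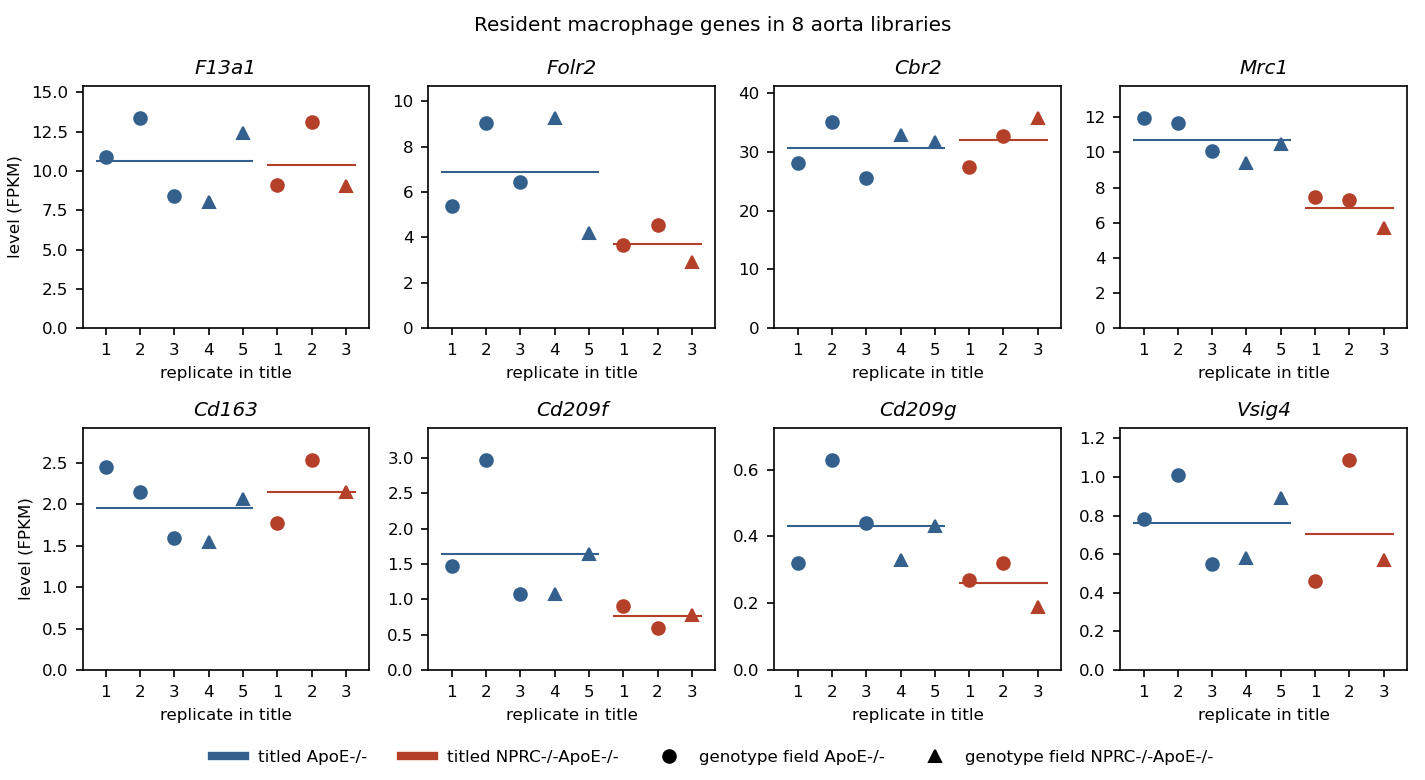
Level of each of the 8 genes in FPKM (vertical axes, each from 0) in the 8 libraries, with the replicate number of the title on the horizontal axis, colour for the titled group, shape for the genotype field and a line at each titled group's mean. For Mrc1 and Cd209f each of the 3 NPRC-/-ApoE-/- points lies below the 5 ApoE-/- points, while for F13a1, Cbr2, Cd163 and Vsig4 the colours are mixed.

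By mean level over the 8 libraries the members were ordered Cbr2, F13a1, Mrc1, Folr2, Cd163, Cd209f, Vsig4 and Cd209g. The ranges over the 8 libraries did not overlap between Cbr2 (25.62 to 35.89 FPKM) and F13a1 (8.01 to 13.40 FPKM), or between Folr2 (2.91 to 9.28 FPKM) and Cd163 (1.54 to 2.54 FPKM), and the other neighbours in this order overlapped. Mrc1 exceeded F13a1 in ApoE-/- 1, 3 and 4, so the order of these neighbours held for the mean of the 8 libraries and not in each of them. When the differences under both labels were set side by side, the intervals of Mrc1, Folr2, Cd209f and Cd209g by title lay below 0, and none of the 8 intervals by genotype field excluded 0.

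**Figure D2:**
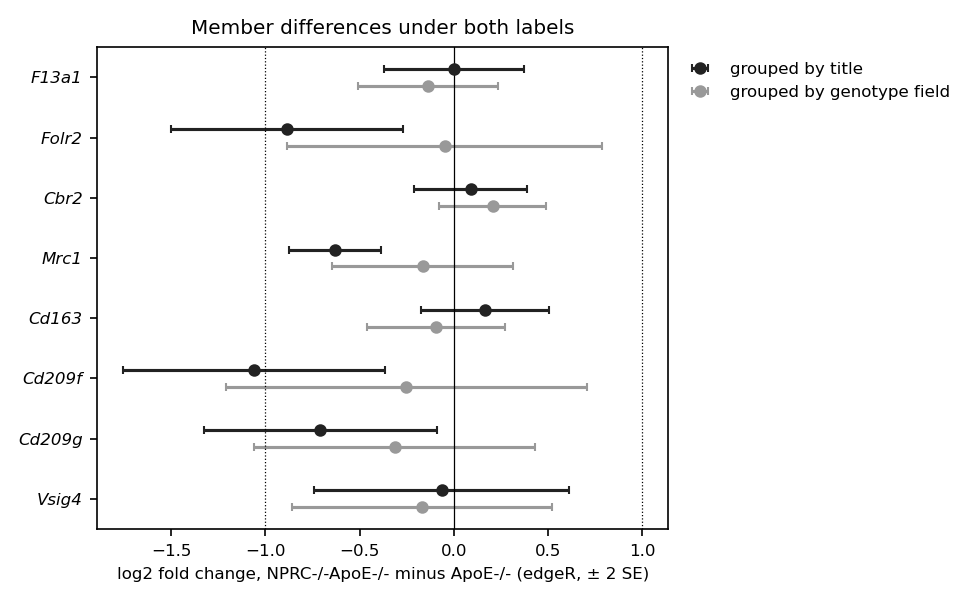
Log2 difference, NPRC-/-ApoE-/- minus ApoE-/-, of each gene (horizontal axis) with bars of 2 SE from edgeR, by title (black) and by genotype field (grey), with Cd209g and Vsig4 from the fit without a filter. Dotted lines mark a log2 difference of 1 in either direction, and Cd209f by title, at -1.06, is the one point beyond them.

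The other macrophage lists were then read against the members. Of 28 further genes of resident macrophages, 27 loci in the table, 23 were tested. Of these, 22 had a lower value by title, 14 with an unadjusted p under 0.05, 10 met the criterion, and the median log2 difference was -0.75, against -0.32 for the 6 tested members and -0.006 for all loci. The adjusted p was under 0.05 for 0 of them in edgeR's quasi-likelihood test. Cd209d, among the 10, was at 0.80 to 1.60 FPKM in ApoE-/- and 0.27 to 0.60 FPKM in NPRC-/-ApoE-/-. It passed the filter through the ApoE-/- libraries alone, so the counts of this list are descriptions as well. Those that met the criterion included Ccl8, a monocyte chemokine, at 18.5 to 68.5 FPKM in ApoE-/- and 4.94 to 12.4 FPKM in NPRC-/-ApoE-/- (log2 difference -2.26, SE 0.54), and Cd209a, another lectin of the family, at 1.91 to 3.30 and 0.46 to 1.23 FPKM (-1.68, SE 0.35). They also included C1qb, a chain of complement C1q, with -1.45 (SE 0.57), Siglec1, the sialic acid receptor CD169, with -1.24 (SE 0.30), and Igf1, insulin-like growth factor, with -1.01 (SE 0.26). Lyve1, a hyaluronan receptor shared with lymphatic endothelium and named here after its values were seen, was the one gene of the list with a higher value, 0.47 (SE 0.37). By genotype field the list's median was -0.072, and 0 genes met the criterion.

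Genes found in macrophages of any kind also had lower values by title. All 16 pan-macrophage genes were tested, 16 had a lower value by title, 7 with an unadjusted p under 0.05, and 6 met the criterion, with a median of -1.09. The locus of Cd68 carries 8 gene names, Eif4a1 and Senp3 among them, and that of Itgam 3, whose reads cannot be separated here. Neither locus is among the 7. Aif1, among the 6, was at 0.90 to 2.33 FPKM in ApoE-/- and 0.16 to 0.78 FPKM in NPRC-/-ApoE-/-. It too passed the filter through the ApoE-/- libraries alone, so these counts are descriptions. Lyz2, lysozyme, was at 478 to 1544 FPKM in ApoE-/- and 220 to 807 FPKM in NPRC-/-ApoE-/- (log2 difference -1.24, SE 0.55, unadjusted p = 0.0508 in edgeR's quasi-likelihood test), so the groups overlapped. Laptm5, a lysosomal protein of blood cells, had -1.02 (SE 0.27), and Spi1, the transcription factor PU.1, had -1.13 (SE 0.40). Of 14 foamy macrophage genes, 13 had a lower value and 5 met the criterion, with a median of -1.01. Ctsd, among the 5, shares its locus with Ifitm10. Gpnmb, a glycoprotein of lipid-laden macrophages, had -1.20 (SE 0.44), and Fabp5, a fatty acid carrier, had -1.35 (SE 0.47). Values near 0, as for F13a1, Cbr2, Cd163 and Vsig4, were found in these lists too, for example -0.02 for Mertk, a receptor for dying cells, 0.02 for Cd36, a lipid scavenger receptor, and -0.13 for Ninj1 of the resident list, named here after their values were seen. Under the genotype field, the medians were -0.23 and -0.023, with 0 genes meeting the criterion in either list. The list counts turned on single libraries, and those for each left-out library are given with the dependence on processing.

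Among 10 genes of macrophage growth and polarising signals, 8 were tested, 7 had a lower value, 5 with an unadjusted p under 0.05, and 2 met the criterion, with a median of -0.82. The 2 were Il10ra, a chain of the interleukin 10 receptor, with -1.08 (SE 0.21), and Il4ra, a chain of the interleukin 4 receptor, with -1.06 (SE 0.42). Csf1r, the receptor for the macrophage growth factor M-CSF, had -0.93 (SE 0.29, adjusted p = 0.285 in edgeR's quasi-likelihood test). Of 12 inflammatory monocyte genes, 8 were tested, 7 had a lower value, 4 with an unadjusted p under 0.05, and 3 met the criterion, with a median of -0.74: Il1b with -2.25 (SE 0.84), the chemokine receptor Ccr2 with -1.82 (SE 0.45) and Plac8 with -1.24 (SE 0.40). Csf1r is also counted among the pan-macrophage genes, and Ly6c2 shares 1 locus with Ly6a (-0.71, unadjusted p = 0.0292 in edgeR's quasi-likelihood test), so that this locus is among the 4 here and again among the adventitial fibroblast genes. Grouped by genotype field, the medians were -0.11 and -0.27, with 0 genes at an unadjusted p under 0.05 in either list.

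**Figure D3:**
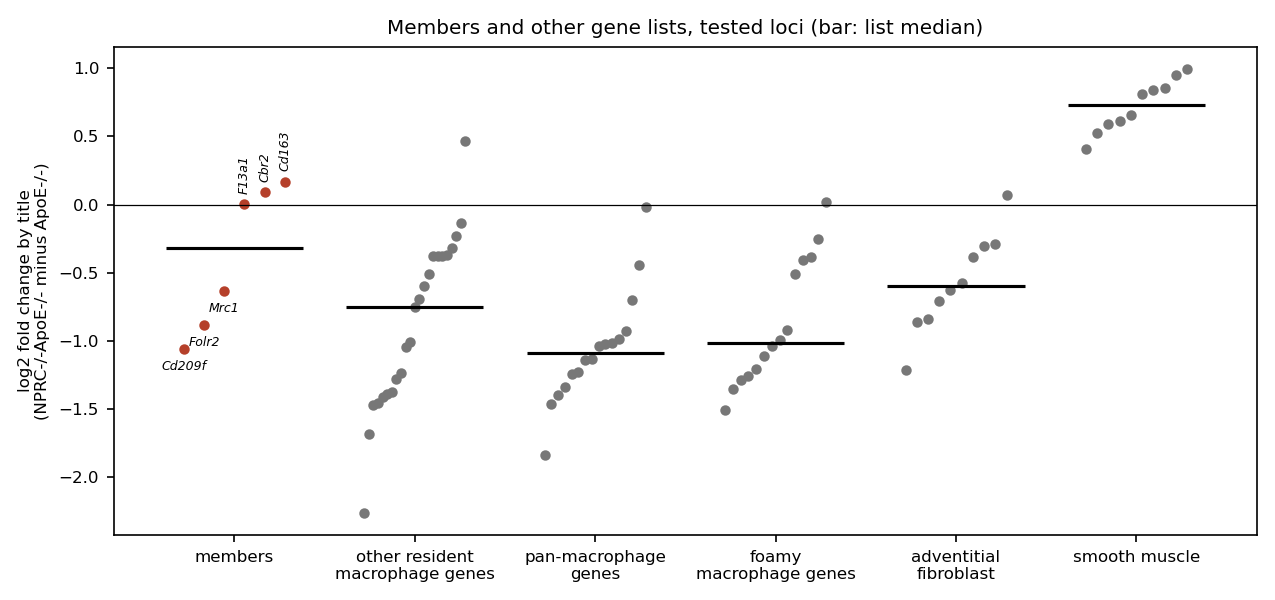
Log2 difference by title of each tested locus (points, sorted within a list) for the members and 5 other gene lists, with a bar at each list's median. Cd163, Cbr2 and F13a1 sit near 0, Mrc1, Folr2 and Cd209f lie with the lower points, and the medians are -0.32 for the members, -0.75 for other resident genes, -1.09 for pan-macrophage genes, -1.01 for foamy macrophage genes, -0.60 for adventitial fibroblast genes and 0.73 for smooth muscle genes.

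Other cell types of the vessel moved with the titled groups as well. Of the 20506 loci tested by title, 2797 had an unadjusted p under 0.05 in edgeR's quasi-likelihood test, 1462 of them with a lower value. The 10 smooth muscle genes each had a higher value, 9 with an unadjusted p under 0.05, with a median of 0.73 and a summed level of 1354 to 1808 FPKM in ApoE-/- and 1746 to 2996 FPKM in NPRC-/-ApoE-/-. Of 10 adventitial fibroblast genes, 9 had a lower value, 4 with an unadjusted p under 0.05 (the shared Ly6a locus included), with a median of -0.60, and their sum was 403 to 741 FPKM and 240 to 445 FPKM. Medians were -0.14 for 6 endothelial genes, -0.17 for 5 tested lymphatic genes, 0.029 for 7 white and 0.33 for 6 brown adipocyte genes, with 0 of them at an unadjusted p under 0.05. Platelet, B cell, T cell and erythroid genes had medians of -0.42 (2 tested), -2.22 (1), -1.12 (2) and -1.15 (3). Of these 8 loci, Cd4, a T cell co-receptor that macrophages can also carry, met the criterion, at 1.95 to 2.85 FPKM in ApoE-/- and 0.48 to 1.28 FPKM in NPRC-/-ApoE-/- without overlap (log2 difference -1.56, SE 0.33, adjusted p = 0.222 in edgeR's quasi-likelihood test), and the other 7 had an unadjusted p above 0.05. With the genotype field as group, the median was 0.17 for smooth muscle, -0.09 for adventitial fibroblast, -0.05 for endothelial, -0.26 for lymphatic, -0.11 for white adipocyte and -0.10 for brown adipocyte genes. It was 0.008, -1.83, 0.37 and 0.16 for the platelet, B cell, T cell and erythroid genes, and 0 genes of these 10 lists had an unadjusted p under 0.05. At 0 in all libraries were 0 markers of any of these lists. The part of these cell types in the members' differences was not tested.

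In single libraries F13a1, Cd163 and Mrc1 did not run in the order of the macrophage sums. The summed pan-macrophage level in ApoE-/- 1 to 5 was 991, 1344, 1949, 2046 and 711 FPKM, and in NPRC-/-ApoE-/- 1 to 3 it was 1140, 427 and 348 FPKM. The foamy macrophage sum ran alongside, from 2592 FPKM in ApoE-/- 4 down to 505 FPKM in NPRC-/-ApoE-/- 3. The sum over the 8 members, to which Cbr2 gave the most, stayed between 51.1 and 76.1 FPKM. F13a1 and Cd163 were lowest in ApoE-/- 4, the library with the highest pan-macrophage and foamy sums. In ApoE-/- 5 and NPRC-/-ApoE-/- 2, with low sums, F13a1 was among its 3 highest values, but it was at 9.05 FPKM in NPRC-/-ApoE-/- 3, which had the lowest sums, and highest in ApoE-/- 2, with a pan-macrophage sum of 1344 FPKM. Mrc1 followed neither, since it was as high in ApoE-/- 5 as in ApoE-/- 3 despite sums of 711 and 1949 FPKM.

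**Figure D4:**
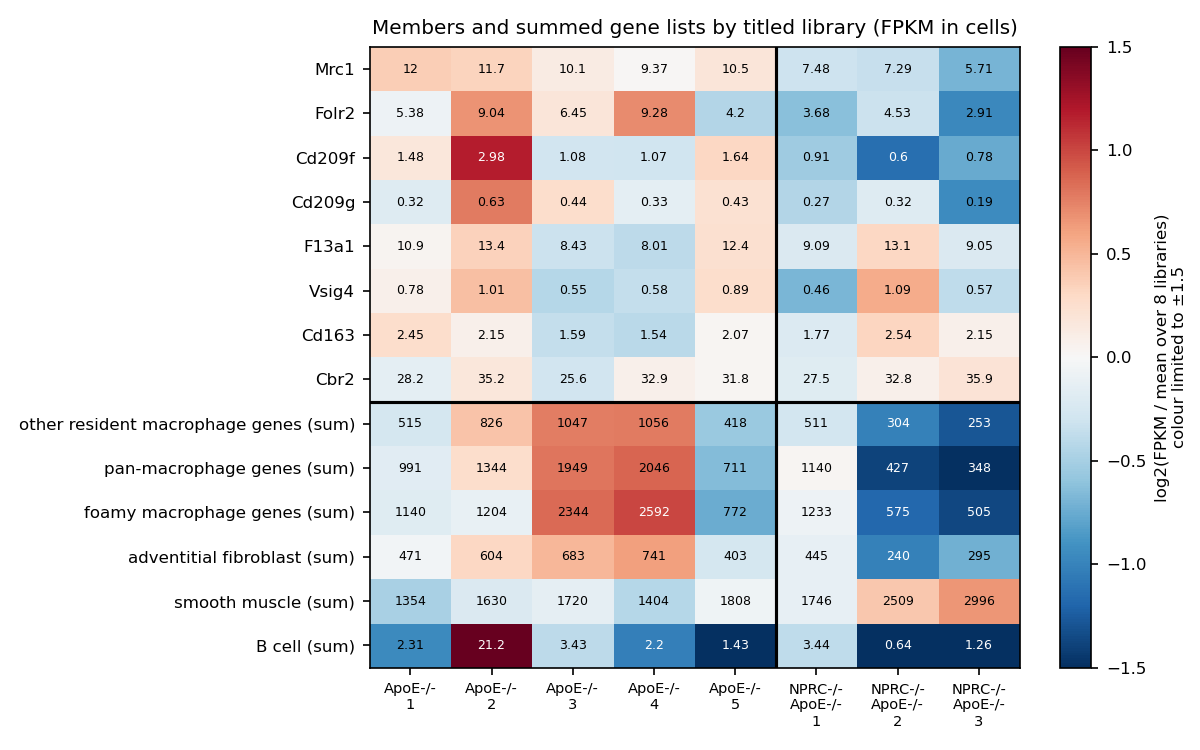
Members and summed gene lists (rows) in the 8 titled libraries (columns), coloured by log2 of the FPKM over the mean of the 8 libraries, with the FPKM printed in each cell and the rows ordered after their values were seen. The pan-macrophage and foamy sums are red in ApoE-/- 3 and 4, where F13a1, Vsig4 and Cd163 are blue, and Mrc1 is blue in the 3 NPRC-/-ApoE-/- libraries.

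Each member was also set against Csf1r in the same library, a comparison chosen after these values were seen and given without a test. Csf1r itself had a log2 difference of -0.93 by title and -0.23 by genotype field. Each ratio difference therefore holds the lower value of Csf1r together with the member's own difference, and is not a separate observation. The mean log2 ratio was higher in NPRC-/-ApoE-/- by 1.09 for Cd163, 1.01 for Cbr2, 0.92 for F13a1 and 0.79 for Vsig4. It was higher by 0.29 for Mrc1, 0.24 for Cd209g and 0.10 for Folr2, and the difference was -0.06 for Cd209f. F13a1, for example, stood at 0.219 to 0.603 FPKM per FPKM of Csf1r in ApoE-/- and at 0.400 to 1.01 in NPRC-/-ApoE-/-. The titled groups overlapped for each of the 8 ratios. By genotype field the differences were 0.12 for F13a1, 0.46 for Cbr2 and 0.16 for Cd163, and between -0.05 and 0.15 for the other 5.

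Within the members, F13a1 and Vsig4 ran together most closely over the 8 libraries. Pearson's r of their log2 CPM (counts scaled to library size) was 0.92 (exact permutation p = 0.00136, 0.0382 after Benjamini-Hochberg adjustment over the 28 pairs) and Spearman's rho 0.86 (exact permutation p = 0.0107, adjusted 0.15). It was 0.80 without the 2 libraries farthest from the median of F13a1 and 0.94 for deviations from the titled group means. Cd163 ran with both, with r of 0.69 to F13a1 and 0.66 to Vsig4 (exact permutation p = 0.0671 and 0.0801, adjusted 0.268 and 0.28), and 0.74 and 0.78 within the titled groups. Mrc1, Cd209f, Cd209g and Folr2 correlated with r of 0.53 to 0.79 among themselves, and within titled groups these values were between -0.004 and 0.47. None of these pairs passed adjustment, with adjusted permutation p from 0.193 to 0.557.

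**Figure D5:**
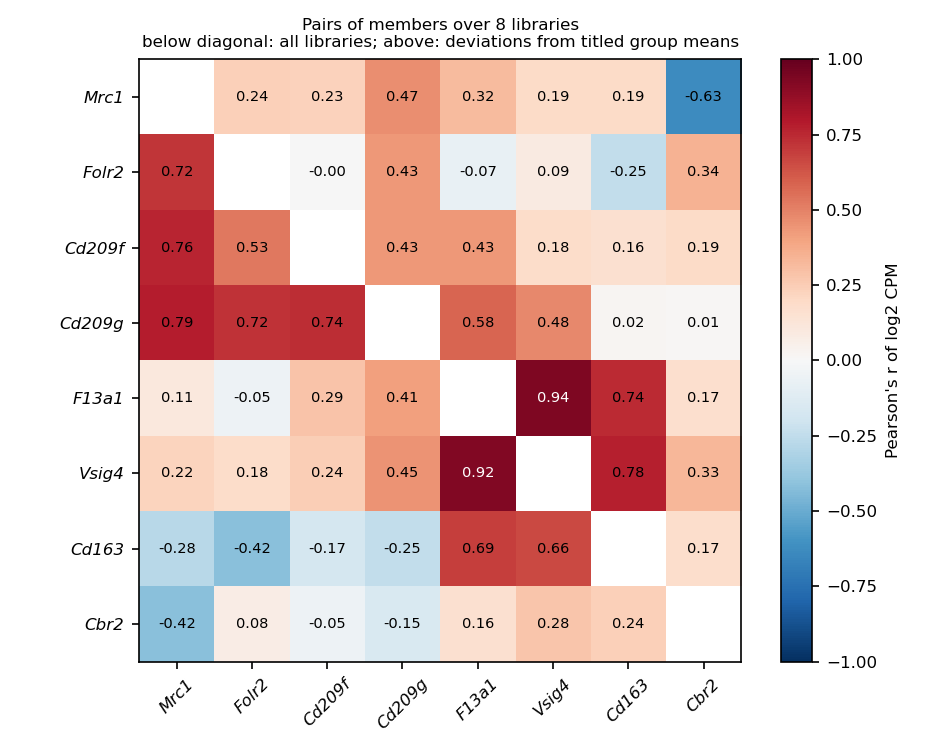
Pearson's r of log2 CPM for the 28 pairs of members over 8 libraries (below the diagonal) and of deviations from titled group means (above). F13a1, Vsig4 and Cd163 form a red block on both sides, and the block of Mrc1, Folr2, Cd209f and Cd209g is paler above the diagonal.

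Depth and library makeup moved with F13a1 and Vsig4. The 4 libraries with the smallest total counts, NPRC-/-ApoE-/- 2 and ApoE-/- 2, 5 and 1 (62969165 to 80358871), held the 4 highest levels of F13a1 (10.88 to 13.40 FPKM) and of Vsig4 (0.78 to 1.09 FPKM). The other 4 (82756206 to 86693276) held the 4 lowest, 8.01 to 9.09 and 0.46 to 0.58 FPKM. Cd163 did not split in this way, with 2.07 to 2.54 FPKM in the smaller and 1.54 to 2.15 FPKM in the larger libraries. Reads of Vsig4 themselves numbered 114 to 126 in the smaller libraries and 72 to 89 in the larger ones, and those of F13a1 6785 to 7725 and 5392 to 6387. The most abundant locus, which includes Rn7s1, a small cytoplasmic RNA gene, took 1.32 to 1.85% of the counts in the smaller libraries and 2.09 to 4.62% in the larger ones. Their part in the levels of F13a1 and Vsig4 was not tested.

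The tested genes most like the mean standardised level of the 6 tested members, out of 18473 loci with a single name that were no member, were 1700020L24Rik (Pearson's r 0.968), Gpi1 (0.933), Mrpl45 (0.927), Bloc1s5 (0.921), Gstm4 (0.913), C1qbp (0.912), Ewsr1 (0.912), Gm26617 (0.911), Nit1 (0.905) and Cish (0.897) over 8 libraries. Spearman's rho was lower than r for each of the 10, from 0.643 for Gpi1 and Gstm4 to 0.881 for Gm26617. The mean standardised level was 1.045 in ApoE-/- 2 and -0.849 to 0.203 in the other libraries, and the weight of this library in r was not tested. Gpi1 encodes a glycolytic enzyme and Mrpl45 a protein of the mitochondrial ribosome. Their differences by title were small, from -0.50 for Cish to -0.07 for Nit1 on the log2 scale. With 8 libraries and 18473 loci compared, these are the highest of many values and carry no test, and no gene of the macrophage lists was among the 10.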

How the data were processed

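Poly(A) RNA of whole aortas was sequenced by the study as 8 libraries. Per the labels and the methods of the study, the authors trimmed reads (cutadapt 1.9 in the submitters' processing notes), mapped them with HISAT2 and assembled loci with StringTie, and the notes name the build GRCm38. They deposited whole-number counts per locus without normalization, and FPKM values, which the authors scaled to length and to mapped fragments. How counts were made, and whether strand was used, is not given in the sources used here. Value columns that belonged to no sample numbered 0.

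Groups followed the title, and comparisons between groups were repeated by genotype field. After a filter of 1 FPKM or more in 3 or more libraries, 20506 loci entered edgeR 4.0.16 in R 4.3.3 (TMM, quasi-likelihood, Benjamini-Hochberg over all loci tested), and single members were compared with two-sided exact permutation tests of log2 CPM (prior count 2, scipy 1.17.1). The criterion was a fold above 2 or below 0.5 with p under 0.05. The SE of a log2 difference was derived as its absolute value over the square root of edgeR's quasi-likelihood F. For Cd209g and Vsig4 it came from the fit without a filter. The test was run first on simulated data. DESeq2 1.42.0 and limma 3.58.1 (on log2(FPKM + 1), with a pseudocount of 0.1 as an alternative), no filter, a mean of 5 FPKM, other scaling, summed loci, replicate blocks and each library left out were alternatives. Members and lists were chosen with earlier results of these data known. Named from each list were its 3 genes with the highest mean FPKM and those meeting the criterion. The libraries are separate aortas by the study's description, and the precision is set by how few they are (edgeR's biological coefficient of variation was 0.327). All 8 loci spanned the same bases as their GENCODE M21 genes. RefSeq start regions were matched by symbol for 8 of 8 members, and where a gene had several, each was searched.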

Additional observations from a re-analysis of the deposited data

How the results depend on the processing

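By title, 1 member met the criterion. The count was 0 when 5 FPKM on average was asked for (which removed Cd209f), with limma on either pseudocount, with array quality weights, and by genotype field, and it ranged from 0 to 2 when single libraries were left out (0 without ApoE-/- 2, 2 without ApoE-/- 5). By genotype field it was 0 in each of the 16 alternatives. Members without overlap in the exact test numbered 2 by title and 0 by genotype field. Of all loci tested, 3.69% and 0.566% were without overlap and lower in NPRC-/-ApoE-/-. Cd209f, 1 of the 2, passed the filter through the ApoE-/- libraries alone. Other resident genes meeting the criterion (10) became 5 at 5 FPKM on average, 6 with limma on log2(FPKM + 1), 0 by genotype field and 5 to 11 with single libraries left out (5 without ApoE-/- 3, ApoE-/- 4, NPRC-/-ApoE-/- 2 or NPRC-/-ApoE-/- 3). Pan-macrophage genes (6) became 3 at 5 FPKM on average, 10 with a pseudocount of 0.1, 12 with array quality weights, 0 by genotype field and 2 to 14 with single libraries left out (11 without ApoE-/- 5, 14 without NPRC-/-ApoE-/- 1, 2 without NPRC-/-ApoE-/- 2 and 3 without NPRC-/-ApoE-/- 3). Foamy genes (5) became 9 with array quality weights, 0 by genotype field and 0 to 9 with single libraries left out (1 without ApoE-/- 3, 2 without ApoE-/- 4, 9 without ApoE-/- 5 or NPRC-/-ApoE-/- 1, 0 without NPRC-/-ApoE-/- 2 or 3). All tested loci meeting it (712) became 2287 without a filter, 114 with a mean of 5 FPKM, 175 with limma on log2(FPKM + 1), 95 by genotype field, and 403 to 1635 with single libraries left out (1132 without ApoE-/- 5, 1635 without NPRC-/-ApoE-/- 1, 404 and 403 without NPRC-/-ApoE-/- 2 and 3). At an adjusted p under 0.05, DESeq2 called 650 loci by title and array quality weights 1168, against 0 in edgeR, where 2797 had an unadjusted p under 0.05. By genotype field these numbers were 9, 0, 0 and 269. The causes were not tested.

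F13a1, at 0.0005 by title, changed sign in 9 alternative fits, with -0.021 and -0.022 in the limma fits with pseudocounts of 1 and 0.1, -0.14 by genotype field and -0.161 to 0.104 with single libraries left out. With single libraries left out, Cbr2 ranged from -0.027 (without NPRC-/-ApoE-/- 3) to 0.206. The 4 libraries with agreeing labels, where NPRC-/-ApoE-/- 3 stands alone, were compared without a fit. There the log2 difference was 0.374 for Cbr2, 0.164 for Cd163 and -0.158 for F13a1. It was -1.13 for Folr2, -1.013 for Cd209f and -0.889 for Mrc1. Cd163 was -0.095 by genotype field. Grouped by genotype field, single libraries left out turned Folr2 (-0.693 to 0.241), Mrc1 (-0.278 to 0.037), Cd163 (-0.216 to 0.046) and Cd209f (-0.505 to 0.193) to the other sign. The unadjusted p of edgeR and limma was 0.447 or above in the fits where a value changed sign.

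The replicate numbers did not pair the libraries, as deviations of same-numbered libraries correlated with -0.27, -0.13 and -0.012. With the replicate number as a block over libraries 1 to 3 of both titles, 0 members met the criterion (1 in the same 6 libraries without the block), foamy genes meeting it numbered 2 against 5, the log2 difference was -0.043 for F13a1 (-0.04 without the block), -0.71 for Mrc1, -0.88 for Folr2 and -1.11 for Cd209f, whose unadjusted p in edgeR was no longer under 0.05, and 800 loci met it against 917.

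Levels of Cd209g (72 to 185 counts) and Vsig4 (72 to 126 counts) rest on few reads, and 3 libraries in 1 group limit the precision.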
